A study of Mus musculus with 36 samples.

Results

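The libraries described are the 4 made from mouse B cells that carried the R35K form of C/EBPα and had been induced for 6 h or for 18 h. They were chosen by their labels alone, as the 6 h and 18 h columns of the R35K count table, and are 4 of the 36 RNA-seq libraries of the series. The whole series follows 3 forms of the factor through the conversion of B cells into macrophages, with libraries at 0, 1, 3, 6, 18 and 120 h and 2 biological replicates of each. The R35K form has lysine in place of an arginine near the N-terminus, which keeps the positive charge of the residue, while the R35A form, with alanine, does not.

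The cells were B cells from the bone marrow of C57BL/6J mice. They were infected with a retrovirus that encodes C/EBPα fused to the hormone-binding domain of the estrogen receptor, with human CD4 as a surface tag, and tagged cells were enriched with magnetic beads before induction. All 3 constructs were handled in this way, on mitomycin-treated embryonic fibroblasts, in medium with interleukin-7, interleukin-3, FLT-3 ligand, mCSF-1 and stem cell factor, and β-estradiol started the induction. The cells were a mixed population of infected primary cells, not a clone. No uninduced culture of 18 h was among the libraries, so that longer exposure to the active factor and longer time in culture cannot be told apart.

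C/EBPα is a leucine zipper transcription factor that directs the myeloid branch of blood formation. When it is expressed in B cells it works with PU.1, the product of Spi1, to switch on macrophage genes and to shut down the B cell programme built by Pax5, Ebf1 and E2A. Carm1 is an arginine methyltransferase that can use C/EBPα as a substrate, and the replaced arginine is the residue of interest. Conversion into macrophages is accompanied by withdrawal from the cell cycle, by gain of phagocyte receptors and by loss of the pre-B cell receptor and of the recombinase that rearranges immunoglobulin genes.

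The total count was 15956063 and 17706150 in the 6 h libraries and 16767417 and 15537002 in the 18 h libraries, and 14668754 to 23131776 over the 12 R35K libraries. Levels are given as CPM (the read count scaled to a common library size), with library sizes adjusted by the trimmed mean of M-values, and changes as log2 fold changes, 18 h minus 6 h, with their standard error. Each group held 2 libraries, so that every value rests on n = 2 per timepoint. The root mean square difference in log2 CPM was 0.161 between the 6 h replicates and 0.166 between the 18 h replicates, against 0.283 to 0.284 between libraries of the 2 times. Replicates differed by more than sampling noise and were counted as separate samples.

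Markers of B cells and of macrophages were both present at the 2 times. The 7 B cell markers summed to 834.2 and 822.4 CPM at 6 h and to 342.5 and 332.9 CPM at 18 h, and the 7 macrophage markers to 6815 and 6668 CPM at 6 h and to 5070 and 4867 CPM at 18 h. Most of the macrophage sum was Lyz2, and the other 6 markers summed to 1804 and 1785 CPM at 6 h and to 1733 and 1695 CPM at 18 h. Markers of fibroblasts, the cell type of the feeders, were present as well: 10 of them summed to 9062 and 8911 CPM at 6 h and to 10130 and 10380 CPM at 18 h. Most of this sum, and all of its rise, was Fn1, and the other 9 summed to 2578 and 2522 CPM at 6 h, 2514 and 2492 CPM at 18 h and 514 and 440.9 CPM at 120 h, when Fn1 was at 8199 and 8449 CPM. The wider list of 22 feeder markers had 7 members that rose and 6 that fell. Markers of T cells, neutrophils and erythroid cells summed to at most 5.11, 0.852 and 0.33 CPM in these libraries. In bulk libraries, fewer cells of a type and less RNA of that type per cell cannot be told apart.

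The first comparison asked which genes changed between 6 h and 18 h of induction in R35K cells. Genes were called at an adjusted p of at most 0.05 and a change of at least 1.5-fold. Of 16434 genes tested, 184 (1.12%) were higher and 703 (4.28%) were lower at 18 h. With no fold threshold, 1869 genes (11.4%) were higher and 1993 (12.1%) lower, and these are the background shares for the gene lists below, whose members are counted as risen or fallen by adjusted p alone. Over the preceding interval, from 3 h to 6 h, 127 genes (0.773%) were higher and 68 (0.414%) lower. Both intervals use the 6 h libraries. With DESeq2 in place of edgeR, the tool used for all other counts here, 116 genes were called higher and 511 lower. With edgeR at 2-fold, 50 were higher and 330 lower.

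**Figure D1:**
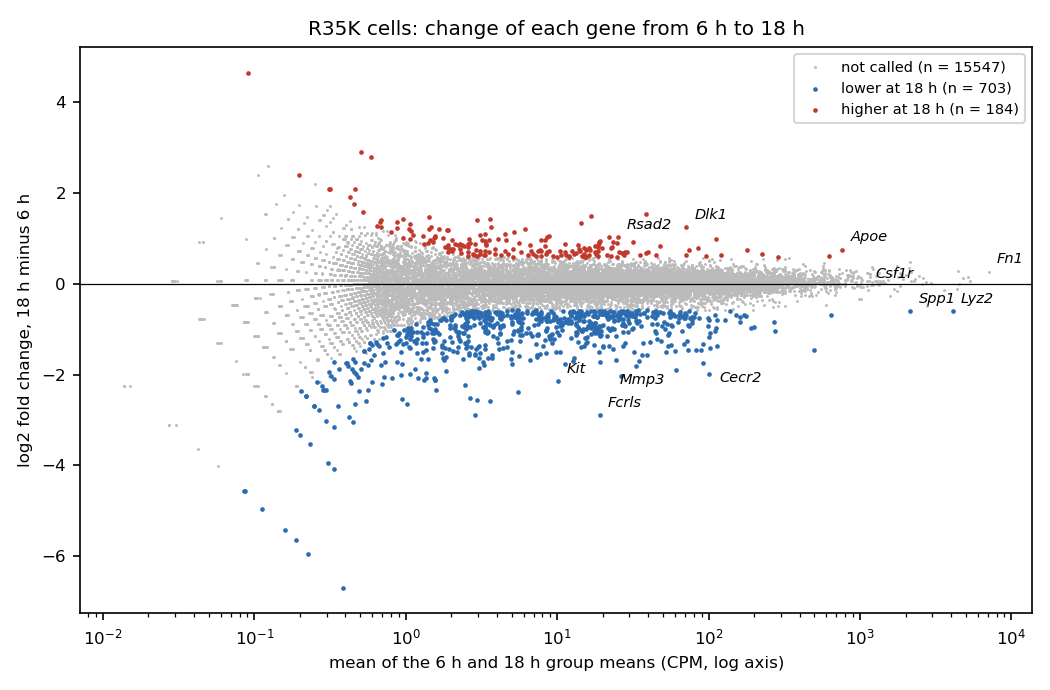
Change of each of the 16434 genes tested (y axis, log2 fold change, 18 h minus 6 h) against the mean of the 6 h and 18 h group means (x axis, CPM, log axis). Each point is a gene, red for the 184 called higher, blue for the 703 called lower and grey for the rest. Dlk1 stands at 1.24 and Fcrls at -2.90, and the blue points outnumber the red.

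The induced factor and its partner differed little between the 2 times. Cebpa was at 89.9 and 92.4 CPM at 6 h and 82.6 and 90.5 CPM at 18 h (log2 fold change -0.077 ± 0.052, adjusted p = 0.317). Reads of the introduced and of the endogenous Cebpa were not separated here, so that this value does not check the construct. Spi1 was at 186 and 181 CPM at 6 h and 182 and 181 CPM at 18 h (log2 fold change -0.018 ± 0.046, adjusted p = 0.834). Carm1 was at 56.5 and 51.7 CPM at 6 h and 58.8 and 55.5 CPM at 18 h (log2 fold change 0.083 ± 0.054, adjusted p = 0.303). None of the 3 passed the test, and the 6 h and 18 h libraries overlapped for Spi1, Cebpa and Carm1 alike. Of 8 arginine methyltransferases tested only Prmt1 passed, with a change of 0.19 (adjusted p = 0.000912).

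Of the called genes with separate replicates and a mean of at least 10 CPM at the higher time, those with the largest increases and decreases are described first. Ly6c2, which encodes the monocyte surface antigen Ly-6C, was at 7.43 and 8.68 CPM at 6 h and 19.4 and 21.6 CPM at 18 h (log2 fold change 1.34 ± 0.10, adjusted p = 2.77e-12). Ly6c2 has a near-identical neighbour, Ly6c1, so that the split of reads between the pair is uncertain. Itgax, the integrin chain CD11c of macrophages and dendritic cells, was at 13.0 and 13.5 CPM at 6 h and 25.6 and 25.2 CPM at 18 h (log2 fold change 0.94 ± 0.082, adjusted p = 5.24e-11). Both are genes of blood cells. Separate replicates, with no overlap between the libraries of the 2 times, were a condition of this ranking. The separation of its genes, here and below, therefore adds no support. All 184 genes called higher and all 703 called lower had separate replicates, as did 9888 of the 16434 genes tested.

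Several of the genes with the largest increases were interferon-inducible. Rsad2, which encodes the antiviral enzyme viperin, was at 17.5 and 16.0 CPM at 6 h and 34.5 and 33.2 CPM at 18 h (log2 fold change 1.02 ± 0.077, adjusted p = 1.82e-12). Mx1, of a family of GTPases, was at 13.5 and 15.2 CPM at 6 h and 30.0 and 28.9 CPM at 18 h (log2 fold change 1.03 ± 0.085, adjusted p = 1.2e-11). Ifit2, which encodes an RNA-binding antiviral protein, was at 21.7 and 22.1 CPM at 6 h and 40.0 and 42.4 CPM at 18 h (log2 fold change 0.91 ± 0.069, adjusted p = 1.49e-12). The 18 h libraries were close to each other for all 3 genes and well above the 6 h libraries. Ifit3 and Gbp4, a guanylate-binding protein, changed by 1.05 and 0.95. The level of Gbp4 at 18 h, 10.0 and 10.6 CPM, was near that at 0 h, 10.9 and 10.6 CPM. Ifit2 was at 18.9 and 18.9 CPM at 0 h, while Rsad2, Mx1 and Ifit3 were at 0.893 CPM or less.

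Fmod, Dlk1 and Smoc2 were also among the largest increases. Fmod, the collagen-binding proteoglycan fibromodulin, was at 9.43 and 8.13 CPM at 6 h and 24.1 and 25.2 CPM at 18 h (log2 fold change 1.49 ± 0.11, adjusted p = 5.55e-13). Dlk1, a Notch-related surface protein of preadipocytes, was at 44.1 and 40.6 CPM at 6 h and 98.9 and 101 CPM at 18 h (log2 fold change 1.24 ± 0.058, adjusted p = 4.45e-18). Smoc2, a matricellular protein, was at 75.2 and 75.9 CPM at 6 h and 148 and 152 CPM at 18 h (log2 fold change 0.98 ± 0.046, adjusted p = 5.1e-18). The 9 fibroblast markers other than Fn1 had sums of 2522 to 2578 CPM at 6 h and 2492 to 2514 CPM at 18 h, and the part of the feeder cells in these increases was not tested. At 120 h Fmod was at 0 counts in both libraries and Smoc2 at 2.31 and 1.48 CPM. Other genes with large increases were Dpyd (1.02), which degrades pyrimidines, Rarres1 (0.96), the sodium channel subunit Scn3b (0.92) and Tmeff2 (0.91).

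The largest decrease was that of Fcrls, a scavenger receptor-like relative of the Fc receptors (chr3:87250758-87263738, GRCm38). Fcrls was at 32.9 and 34.4 CPM at 6 h and 4.29 and 4.75 CPM at 18 h (log2 fold change -2.90 ± 0.095, adjusted p = 3.74e-22). Its course was not one way, since it was at 0.357 and 0.194 CPM at 0 h, 82.8 and 84.1 CPM at 1 h and 124 and 125 CPM at 120 h. Kit, the receptor for stem cell factor and a progenitor gene, was at 16.7 and 16.5 CPM at 6 h and 3.58 and 3.93 CPM at 18 h (log2 fold change -2.14 ± 0.13, adjusted p = 3.02e-15). Olr1, a receptor for oxidised lipoprotein, was at 50.3 and 56.3 CPM at 6 h and 16.7 and 16.2 CPM at 18 h (log2 fold change -1.69 ± 0.074, adjusted p = 7.53e-19). For all 3 genes the 18 h libraries lay far below the 6 h libraries.

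Several of the remaining large decreases were in genes known from lymphoid cells. Igkc, the constant region of the kappa light chain, was at 17.5 and 17.5 CPM at 6 h and 5.17 and 5.07 CPM at 18 h (log2 fold change -1.77 ± 0.15, adjusted p = 3.99e-11). Mzb1, an endoplasmic reticulum protein of B cells and plasma cells, was at 30.7 and 27.8 CPM at 6 h and 9.63 and 8.11 CPM at 18 h (log2 fold change -1.71 ± 0.095, adjusted p = 4.74e-16). H2-Ob, a chain of the class II peptide-editing regulator H2-O that B cells express, was at 10.3 and 11.7 CPM at 6 h and 3.41 and 3.87 CPM at 18 h (log2 fold change -1.61 ± 0.13, adjusted p = 1.06e-11). Cecr2, a subunit of a chromatin remodelling complex, was at 159.8 and 162 CPM at 6 h and 38.9 and 42.8 CPM at 18 h (log2 fold change -1.98 ± 0.048, adjusted p = 9.89e-26), and Adgrg1, an adhesion G protein-coupled receptor, changed by -1.75. Replicates of 1 time differed by much less than the times for each of these genes. Mmp3, a matrix metalloproteinase of fibroblasts and macrophages, fell as well, from 94.8 and 97.2 CPM to 26.7 and 24.8 CPM, as did the fibroblast marker Dcn (-1.45), and the part of the feeder cells was not tested. The other genes were Ipcef1 (-2.03), Ppp1r16b (-1.81), Rag1, the alkaline phosphatase gene Alpl (-1.68), 1700027J07Rik (-1.67) and Gm4759 (-1.63).

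**Figure D2:**
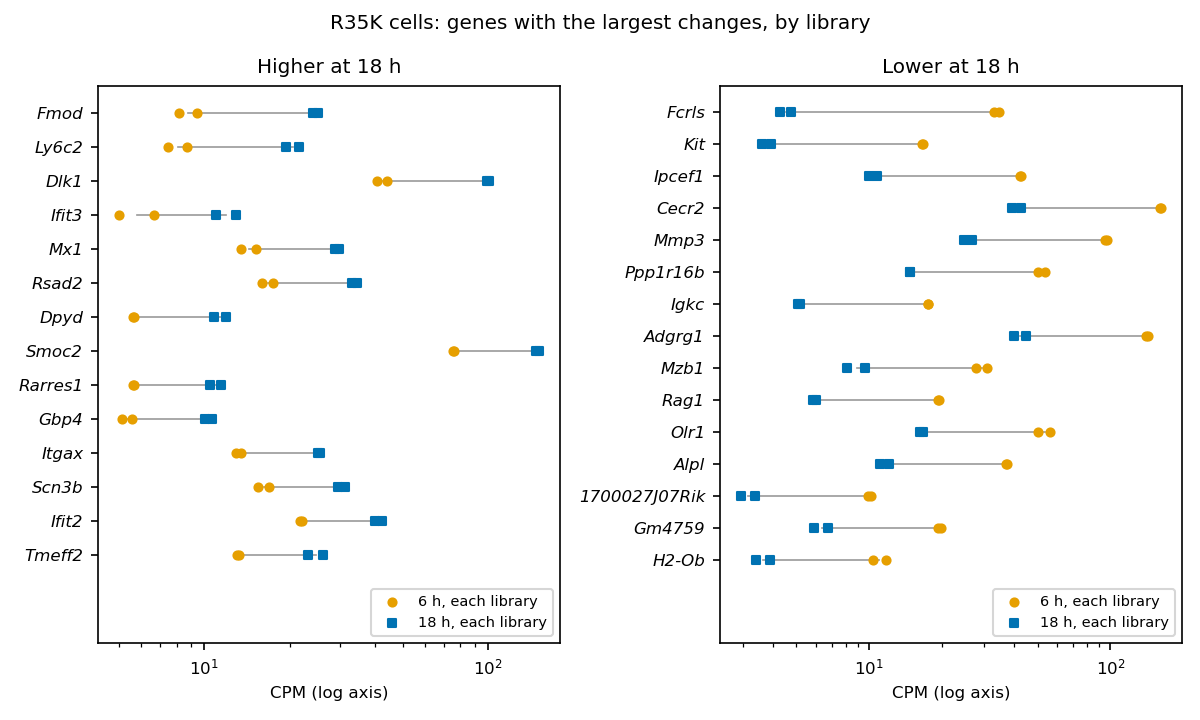
CPM (x axis, log axis) of genes with the largest increases and decreases among called genes with separate replicates and at least 10 CPM at the higher time. Orange circles are the 2 libraries of 6 h, blue squares the 2 of 18 h, and the grey line joins the means. By the rule of choice the circles and squares are apart in each row. Kit, for example, is at 16.5 to 16.7 CPM at 6 h and 3.58 to 3.93 CPM at 18 h.

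Genes of the B cell programme fell together. Of the 20 B cell signature genes that the study lists, 18 fell, none rose and 2 did not pass (median log2 fold change -1.29, against -0.0015 over all genes tested). The list is the study's own choice for this conversion, so that its direction is not independent evidence. The 2 members that did not pass were Cd2, at -0.36 (adjusted p = 0.214), and Bcl11a, at -0.34 (adjusted p = 0.064), the latter past the threshold with the 4 libraries alone (adjusted p = 0.0334). Foxo1, which activates the recombinase genes, had the smallest change of the 18, at -0.43 (adjusted p = 2.7e-09).

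Cd79b, a signalling chain of the B cell receptor, was at 148 and 148 CPM at 6 h and 56.3 and 54.8 CPM at 18 h (log2 fold change -1.41 ± 0.044, adjusted p = 1.44e-22). Igll1, a part of the surrogate light chain, was at 167 and 159 CPM at 6 h and 65.9 and 60.5 CPM at 18 h (log2 fold change -1.37 ± 0.045, adjusted p = 4.18e-22). In each both 18 h libraries lay far below both 6 h libraries. The list of 24 receptor components, kinases and adaptors had 19 members that fell, 1 that rose and 4 that did not pass (median -0.80). Vpreb1, the other part of the surrogate light chain, changed by -1.36, and its near copy Vpreb2 by -0.90, and reads shared by this pair make both values uncertain. The member that rose was Cd81, a tetraspanin that many cell types express, at 0.24 (adjusted p = 5.82e-06).

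Transcription factors of the B lineage followed the same direction, with 17 of 20 that fell, 1 that rose and 2 that did not pass (median -0.65). Pax5, the factor that commits cells to the lineage, was at 142 and 136 CPM at 6 h and 62.8 and 61.4 CPM at 18 h (log2 fold change -1.16 ± 0.047, adjusted p = 1.1e-19). Pou2af1, a coactivator of immunoglobulin genes, was at 88.3 and 89.5 CPM at 6 h and 30.9 and 32.8 CPM at 18 h (log2 fold change -1.48 ± 0.053, adjusted p = 5.91e-21). Ebf1, which specifies the lineage together with E2A, was at 94.0 and 101 CPM at 6 h and 50.9 and 50.8 CPM at 18 h (log2 fold change -0.94 ± 0.05, adjusted p = 2.16e-16). Of the 3, Ebf1 kept the largest share of its 6 h level. Erg, Lef1 and Spib, a relative of Spi1 in B cells, changed by -1.40, -1.38 and -1.28. The exception was Sox4, an early lymphoid factor, at 0.20 (adjusted p = 0.00262).

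The recombination machinery fell in part. Rag1, a subunit of the recombinase, was at 19.2 and 19.5 CPM at 6 h and 5.87 and 6.02 CPM at 18 h (log2 fold change -1.70 ± 0.11, adjusted p = 8.87e-14). Rag2, the other subunit, was at 5.30 and 5.28 CPM at 6 h and 1.06 and 2.41 CPM at 18 h (log2 fold change -1.62 ± 0.22, adjusted p = 7.98e-07). Dntt, the polymerase that adds untemplated nucleotides at the joints, was at 17.4 and 17.0 CPM at 6 h and 7.28 and 7.80 CPM at 18 h (log2 fold change -1.19 ± 0.099, adjusted p = 1.42e-11). Rag1, Rag2 and Dntt are lymphoid-restricted, but Hmgb2, a member that is not, fell as well (-0.95 in a fit of all 36 libraries). The general end-joining genes of the list were mostly among the 7 of 14 that did not pass. No member of the list rose (median -0.29). In the interleukin-7 receptor pathway, whose ligand is in the medium, 6 of 14 members fell and 1 rose (median -0.17). Stat5b, a mediator of the signal, was at 83.6 and 80.6 CPM at 6 h and 48.4 and 51.7 CPM at 18 h (log2 fold change -0.71 ± 0.051, adjusted p = 4e-13), the kinase gene Jak3 changed by -0.48 and the cyclin gene Ccnd2 by 0.24.

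Genes of macrophages showed no common direction over this interval. Of the 20 macrophage signature genes of the study, 6 rose, 5 fell and 9 did not pass (median 0.024). Csf1r, the receptor for the growth factor mCSF-1, was at 1138 and 1129.7 CPM at 6 h and 1104 and 1086 CPM at 18 h (log2 fold change -0.05 ± 0.031, adjusted p = 0.264). Itgam, the integrin chain CD11b, was at 101 and 102 CPM at 6 h and 118 and 119 CPM at 18 h (log2 fold change 0.23 ± 0.046, adjusted p = 0.000254). Cd14, a coreceptor for bacterial lipopolysaccharide, was at 146 and 143 CPM at 6 h and 131 and 123 CPM at 18 h (log2 fold change -0.18 ± 0.045, adjusted p = 0.00244). Csf1r did not pass the test, while Itgam rose and Cd14 fell, both by less than 1.5-fold. The increases included Csf3r (0.40), Ifitm6 (0.29), Ccr1 (0.25), Itgam and Tyrobp (0.16), and the largest decrease was in C1qc (-0.48). The macrophage lysozyme gene Lyz2 was at 5012 and 4883 CPM at 6 h and 3337 and 3172 CPM at 18 h (log2 fold change -0.60 ± 0.027, adjusted p = 1.95e-18).

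Myeloid transcription factors were as mixed, with 5 of 25 that rose, 5 that fell and 15 that did not pass (median -0.018). Nr1h3, the oxysterol receptor LXRα, was at 6.82 and 6.21 CPM at 6 h and 10.5 and 10.5 CPM at 18 h (log2 fold change 0.69 ± 0.13, adjusted p = 8.66e-05). Klf4, a factor of monocytes, was at 320.4 and 326 CPM at 6 h and 397 and 409.9 CPM at 18 h (log2 fold change 0.32 ± 0.035, adjusted p = 1.06e-08). Irf8, a factor of both B cells and monocytes, was at 92.8 and 98.5 CPM at 6 h and 66.0 and 67.6 CPM at 18 h (log2 fold change -0.52 ± 0.046, adjusted p = 9.7e-11). Gfi1, a repressor of progenitors, changed by -1.16 from a low level, and Bhlhe40 changed by 0.27.

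Among macrophage surface receptors 16 of 41 rose, 7 fell and 18 did not pass (median 0.035). Clec7a, which encodes the β-glucan receptor dectin-1, was at 61.0 and 63.8 CPM at 6 h and 111 and 105 CPM at 18 h (log2 fold change 0.79 ± 0.049, adjusted p = 8.94e-15). Marco, a scavenger receptor of the lung and marginal zone, was at 2.07 and 2.25 CPM at 6 h and 5.29 and 5.07 CPM at 18 h (log2 fold change 1.26 ± 0.18, adjusted p = 2.3e-06). Mrc1, the mannose receptor, was at 69.1 and 70.8 CPM at 6 h and 43.5 and 40.7 CPM at 18 h (log2 fold change -0.73 ± 0.054, adjusted p = 8.08e-13). Clec7a and Marco were the only members called at 1.5-fold in the upward direction and Mrc1 the only one downward. The Fc receptor gene Fcgr1 and the lectin gene Clec4n, which encodes dectin-2, changed by 0.44 and 0.44, and the inhibitory Fc receptor gene Fcgr2b by -0.29. Of 16 integrins and adhesion molecules 8 rose and 3 fell (median 0.12). Next to Itgax, Itgb7, the beta chain of gut-homing integrins, was at 56.1 and 54.5 CPM at 6 h and 92.1 and 92.4 CPM at 18 h (log2 fold change 0.74 ± 0.051, adjusted p = 1.28e-13), and Pecam1, an adhesion molecule of endothelium and leukocytes, was at 24.3 and 23.1 CPM at 6 h and 11.3 and 11.9 CPM at 18 h (log2 fold change -1.04 ± 0.084, adjusted p = 9.66e-12). Of the 6 NADPH oxidase subunits, which make the oxidative burst, 2 rose, among them Cybb (0.14), and Rac2 (-0.33) fell.

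Secreted products of inflammation fell more often than they rose. Of 27 chemokines and cytokines tested, 10 fell, 5 rose and 12 did not pass (median -0.051). Il6, an inflammatory cytokine also made by fibroblasts, was at 24.4 and 25.2 CPM at 6 h and 12.6 and 11.6 CPM at 18 h (log2 fold change -1.04 ± 0.087, adjusted p = 1.82e-11). Spp1, the secreted phosphoprotein osteopontin, was at 2594 and 2586 CPM at 6 h and 1746 and 1649.8 CPM at 18 h (log2 fold change -0.61 ± 0.03, adjusted p = 2.03e-17). Ccl6, a chemokine of myeloid cells, was at 228 and 229 CPM at 6 h and 340.2 and 348 CPM at 18 h (log2 fold change 0.59 ± 0.036, adjusted p = 5.57e-15). Il6 and Spp1 were called lower, with Il1b at -0.70, and Ccl6 was the single member called higher at 1.5-fold. Il1rn, the antagonist of interleukin-1, changed by 0.37 and the monocyte attractant Ccl2 by -0.57. Of 11 complement genes 6 fell and 2 rose (median -0.21), and the 3 chains of C1q, the recognition unit of the classical pathway, all fell, with C1qa at -0.67, C1qc at -0.48 and C1qb at -0.27. The receptor gene C5ar1 rose, at 0.27. Of 12 chemokine receptors 3 rose and 3 fell, the latter being Ccr7 (-0.79), Cx3cr1 (-0.62) and Cxcr4 (-0.50), of which DESeq2 did not call Ccr7.

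Interferon-stimulated genes rose, with 22 of 30 higher, none lower and 8 that did not pass (median 0.52). At 1.5-fold, 13 of the 30 were called higher. The products of these genes sense and block viruses. Their common promoter element, the interferon-stimulated response element, contains a pair of GAAA repeats separated by a pair of bases (GAAANNGAAA, searched on both strands), and it is bound by factors that interferon activates. The windows of 3 members are printed from RefSeq (GRCm38.p6, 250 bases before to 50 bases after the start of the gene, read along the gene's strand), with each match in capitals, because their transcripts rose and they carry the element. The windows are those of Rsad2 (chr12:26456403-26456702, minus strand), Ifit1 (chr19:34640639-34640938, plus strand) and Ifit3 (chr19:34583279-34583578, plus strand).
Rsad2: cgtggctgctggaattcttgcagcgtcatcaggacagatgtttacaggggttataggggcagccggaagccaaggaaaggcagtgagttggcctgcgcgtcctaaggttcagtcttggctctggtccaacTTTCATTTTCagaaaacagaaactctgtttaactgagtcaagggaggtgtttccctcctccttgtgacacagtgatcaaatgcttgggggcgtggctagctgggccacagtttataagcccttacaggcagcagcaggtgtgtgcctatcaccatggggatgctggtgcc
Ifit1: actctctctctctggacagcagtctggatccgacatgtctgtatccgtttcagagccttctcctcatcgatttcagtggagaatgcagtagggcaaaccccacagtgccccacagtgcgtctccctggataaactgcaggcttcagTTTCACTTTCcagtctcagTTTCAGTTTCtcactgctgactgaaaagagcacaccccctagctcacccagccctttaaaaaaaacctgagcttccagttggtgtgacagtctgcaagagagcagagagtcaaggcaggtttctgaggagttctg
Ifit3: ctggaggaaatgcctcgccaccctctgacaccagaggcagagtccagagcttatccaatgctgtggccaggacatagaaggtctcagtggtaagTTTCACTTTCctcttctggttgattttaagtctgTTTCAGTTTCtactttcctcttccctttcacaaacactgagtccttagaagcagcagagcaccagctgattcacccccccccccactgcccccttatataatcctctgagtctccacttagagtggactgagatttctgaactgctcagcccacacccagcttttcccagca

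The match in Rsad2 begins 120 bases before the start, and the windows of Ifit1 and Ifit3 hold 2 matches each. The same letters were found in 1131 of the 32851 promoter windows (3.44%), and in 446 of the 11505 tested genes with a window (3.88%). Of the 30 list members 23 had a window and 14 of those held the letters, which is given as a count only, since fewer than 80% had a window. A match is a description of the sequence, not evidence of binding.

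Ifit1, an RNA-binding antiviral protein, was at 12.5 and 13.0 CPM at 6 h and 23.7 and 21.9 CPM at 18 h (log2 fold change 0.84 ± 0.087, adjusted p = 2.79e-09). Cmpk2, a nucleotide kinase next to Rsad2 in the genome, was at 8.34 and 8.24 CPM at 6 h and 12.9 and 12.9 CPM at 18 h (log2 fold change 0.63 ± 0.12, adjusted p = 8.37e-05). Ifit3b, a near copy of Ifit3, was at 0.791 and 0.714 CPM at 6 h and 1.35 and 2.85 CPM at 18 h (log2 fold change 1.46 ± 0.35, adjusted p = 0.00175), and reads that fit both copies make the split uncertain. The members that did not pass included Gbp3, Bst2, Irf9, Xaf1, Isg20, Rtp4 and Ifi44, and they are named here after their values were seen. Gbp3 (-0.072) and Bst2 (-0.00027) each have a window with 2 matches to the element, so that carrying it did not go with a rise in every member.

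**Figure D3:**
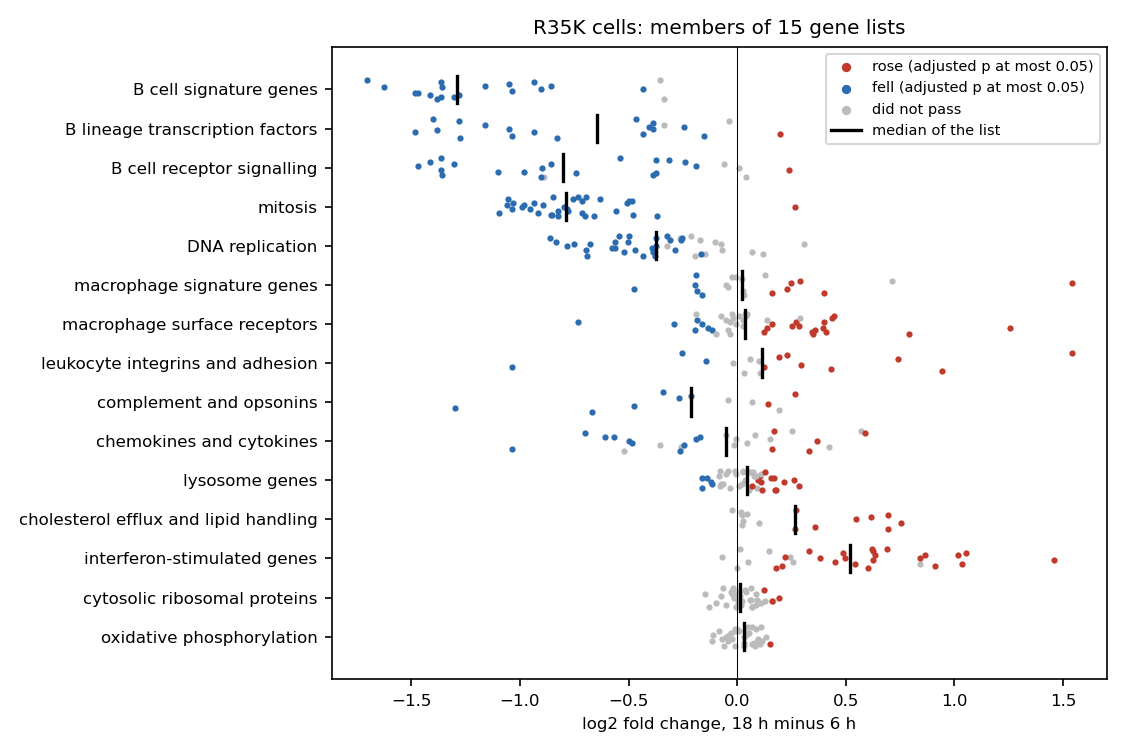
Log2 fold change, 18 h minus 6 h (x axis), of each tested member of 15 gene lists (rows). Red points rose and blue points fell at an adjusted p of at most 0.05, grey points did not pass, and the black bar is the median of the list. The bar stands at -1.29 for the B cell signature, at -0.79 for mitosis and at 0.52 for interferon-stimulated genes, while ribosomal proteins and oxidative phosphorylation lie near 0.

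Genes of the cell cycle fell, and those of mitosis almost without exception. Of 34 mitosis genes 33 fell and 1 rose (median -0.79), and 27 were called lower at 1.5-fold. Ccna2, a cyclin of S phase and mitosis, was at 61.1 and 61.8 CPM at 6 h and 29.4 and 28.1 CPM at 18 h (log2 fold change -1.09 ± 0.054, adjusted p = 1.74e-17). Ccnb1, the mitotic cyclin, was at 17.7 and 18.5 CPM at 6 h and 9.22 and 8.18 CPM at 18 h (log2 fold change -1.05 ± 0.1, adjusted p = 3.39e-10). Cenpf, a kinetochore protein, was at 39.5 and 39.9 CPM at 6 h and 18.4 and 19.8 CPM at 18 h (log2 fold change -1.06 ± 0.068, adjusted p = 2.62e-14). The 18 h libraries of each lay well below its 6 h libraries, and the times did not overlap, as in all 703 genes called lower. Cdc25c, the phosphatase that activates the mitotic kinase, changed by -1.04. The member that rose was Pttg1, the securin, at 0.27 (adjusted p = 0.0117), a call that DESeq2 did not make.

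Promoters of late cell cycle genes often carry the cell cycle genes homology region, TTTGAA. It was found on either strand in 19 of the 28 mitosis genes that had a window, which is 67.9%. Over all tested genes with a window it was found in 1703 of 11505 (14.8%). Counted by window rather than by gene, it was in 5878 of all 32851 (17.9%). The windows of Cenpf (chr1:189688037-189688336, minus strand) and of the mitotic kinase gene Plk1 (chr7:122159185-122159484, plus strand) are printed as examples, from RefSeq GRCm38.p6 with the match in capitals; Plk1 was chosen after its values were seen.
Cenpf: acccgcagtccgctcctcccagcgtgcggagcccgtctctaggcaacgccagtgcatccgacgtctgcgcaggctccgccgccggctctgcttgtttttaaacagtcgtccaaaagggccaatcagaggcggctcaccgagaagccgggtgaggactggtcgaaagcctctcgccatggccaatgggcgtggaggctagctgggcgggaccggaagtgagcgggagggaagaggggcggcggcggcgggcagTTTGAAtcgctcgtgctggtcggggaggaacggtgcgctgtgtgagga
Plk1: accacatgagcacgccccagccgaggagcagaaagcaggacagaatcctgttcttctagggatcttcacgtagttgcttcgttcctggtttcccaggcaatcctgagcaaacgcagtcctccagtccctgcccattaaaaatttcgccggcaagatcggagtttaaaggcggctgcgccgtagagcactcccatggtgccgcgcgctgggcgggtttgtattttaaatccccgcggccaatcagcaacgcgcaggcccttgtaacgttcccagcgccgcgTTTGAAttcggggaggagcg

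Plk1 was at 13.8 and 14.4 CPM at 6 h and 7.52 and 7.42 CPM at 18 h (log2 fold change -0.92 ± 0.10, adjusted p = 1.41e-08). In Cenpf and in Plk1 the letters stand past the start of the gene, within the last 50 bases of the window. No test was made on the shares, which describe the sequences of the list.

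Of 40 DNA replication genes 27 fell, none rose and 13 did not pass (median -0.38). Prim1, the catalytic subunit of primase, was at 22.1 and 21.0 CPM at 6 h and 12.2 and 11.4 CPM at 18 h (log2 fold change -0.86 ± 0.085, adjusted p = 8.12e-10). Mcm5, a subunit of the replicative helicase, was at 88.3 and 84.5 CPM at 6 h and 52.9 and 49.6 CPM at 18 h (log2 fold change -0.75 ± 0.048, adjusted p = 2.81e-14). The origin licensing genes Cdc6 and Orc1 changed by -0.83 and -0.78. Of 23 regulators of the G1 phase 11 fell and 7 rose. Those that fell included E2f2 (-0.71), an activator of S phase genes, and Ccne1 (-0.59). The inhibitor Cdkn2d fell too (-0.67 in a fit of all 36 libraries). Those that rose included the inhibitors Cdkn2b (0.34), Cdkn2a (0.31) and Cdkn1a (0.24) but also the cyclin gene Ccnd1 (0.26). The inhibitors thus did not share a direction. Markers of fibroblasts were present in these libraries, and the part of the feeder cells in the changes of G1 regulators was not tested. The maintenance methylation genes Uhrf1, at 68.0 and 69.2 CPM at 6 h and 38.2 and 35.8 CPM at 18 h, and Dnmt1, at -0.56, fell as well, and 3 of 7 genes of DNA methylation fell in all.

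Lipid handling rose, with 8 of 15 genes of cholesterol efflux and lipid uptake higher and none lower (median 0.27). Apoe, the lipoprotein of macrophage cholesterol export, was at 574 and 566 CPM at 6 h and 962 and 959.5 CPM at 18 h (log2 fold change 0.75 ± 0.03, adjusted p = 6.81e-20). Abcg1, a cholesterol transporter, was at 29.8 and 30.8 CPM at 6 h and 50.8 and 47.4 CPM at 18 h (log2 fold change 0.69 ± 0.062, adjusted p = 7.59e-11). Fabp4, a fatty acid carrier, was at 11.8 and 11.4 CPM at 6 h and 18.5 and 17.0 CPM at 18 h (log2 fold change 0.62 ± 0.099, adjusted p = 9.8e-06). Apoe, Abcg1 and Nr1h3, described above, are known as parts of one regulatory circuit, Nr1h3 being the receptor that activates the others. Genes of cholesterol synthesis and uptake changed little, with 3 of 25 that fell, Stard4 (-0.48), Cyp51 (-0.24) and Srebf2 (-0.23), and none that rose. Of 40 lysosome genes 13 rose and 5 fell, none by 1.5-fold, from -0.16 for Laptm5 to 0.28 for the protease gene Ctsc, and 7 rose without the 6 h replicate 1 or without the 18 h replicate 1. The list of 13 genes of MHC class II presentation also held costimulatory genes, and of these Cd40 (0.47), Cd80 (0.21) and Cd86 (0.16) rose. Of its class II genes H2-DMa (0.36) rose and H2-Ob fell. DESeq2 called neither Cd40 nor Cd86.

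In the lists of oxidative phosphorylation and of ribosomes few members passed. Of 34 subunits of oxidative phosphorylation 1 rose, Uqcrc1 (0.15), and of 36 ribosomal protein genes 3 rose, Rplp1, Rps2 and Rplp0, by at most 0.19. Of 34 genes of ribosome biogenesis 3 fell, with Dkc1 at -0.29. Of 20 genes of glycolysis and the hypoxia response 8 fell and none rose, led by Bnip3 (-0.53), Egln3 (-0.47) and Pdk1 (-0.47). Of 23 immediate early factors 6 rose and 4 fell, with Fosb at 0.31 and the phosphatase gene Dusp2 at -0.60. Of 13 Bcl2 family members 5 rose and 2 fell, with the survival gene Bcl2l1 at 0.33 and the death gene Bmf at -0.47. The death genes Bbc3, Bak1 and Pmaip1 were also among those that rose (0.27, 0.16 and 0.14 in a fit of all 36 libraries). The death gene Bcl2l11 fell (-0.19 in that fit), so that death genes moved in both directions. Of 24 genes of amino acid and unfolded protein stress 9 rose and 7 fell. In the granule list Mmp8, a collagenase of neutrophils, was at 496 and 495 CPM at 6 h and 775 and 748 CPM at 18 h (log2 fold change 0.62 ± 0.036, adjusted p = 1.39e-15), and Slpi, a protease inhibitor, changed by -0.82.

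Of 29 cytoskeleton and podosome genes 15 rose and 4 fell (median 0.11). The largest increases were in S100a11 (0.43), S100a6 (0.40), Anxa3 (0.33) and the actin-capping gene Capg (0.32), and the decreases in Wdfy4 (-0.72), Coro1a (-0.41), Lcp1 (-0.21) and Actb (-0.12). Wdfy4, Coro1a and Lcp1 are leukocyte genes, while fibroblasts express the S100 and annexin genes too. Among the feeder markers Fn1, fibronectin, was at 6484 and 6389 CPM at 6 h and 7613 and 7883 CPM at 18 h (log2 fold change 0.27 ± 0.026, adjusted p = 4.08e-10), Bgn, the proteoglycan biglycan, was at 1808 and 1784 CPM at 6 h and 2522 and 2510.2 CPM at 18 h (log2 fold change 0.49 ± 0.032, adjusted p = 5.83e-14), and Dcn, the related decorin, was at 129.9 and 132 CPM at 6 h and 49.2 and 46.5 CPM at 18 h (log2 fold change -1.45 ± 0.046, adjusted p = 1.81e-22). Bgn and Dcn thus moved in opposite directions. Fn1 was at 8199 and 8449 CPM at 120 h, when the other 9 fibroblast markers summed to 514 and 440.9 CPM, so that its source is uncertain. The part of the feeder cells in the cytoskeleton counts was not tested.

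The place of the 6 h to 18 h interval in the whole course differed by group of genes. Pax5 was at 864 and 860.1 CPM at 0 h, 155 and 153 CPM at 1 h and 0.478 and 1.17 CPM at 120 h, so that its decrease between 6 h and 18 h followed a larger one in the first hour. Csf1r was at 7.91 and 7.76 CPM at 0 h, 1132 and 1097 CPM at 1 h and 2069 and 2091 CPM at 120 h. Itgax was at 1.13 and 0.776 CPM at 0 h and 125 and 129 CPM at 120 h. The level of Itgax at 18 h thus stood far below that at 120 h. Rsad2 was at 0.298 and 0.194 CPM at 0 h, 6.79 and 8.17 CPM at 1 h, 8.82 and 10.0 CPM at 3 h and 131 and 126 CPM at 120 h. Mki67, a marker of cycling cells, was at 372 and 363 CPM at 6 h, 176 and 184 CPM at 18 h and 195 and 211 CPM at 120 h, and the level at 120 h was thus not below that at 18 h.

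**Figure D4:**
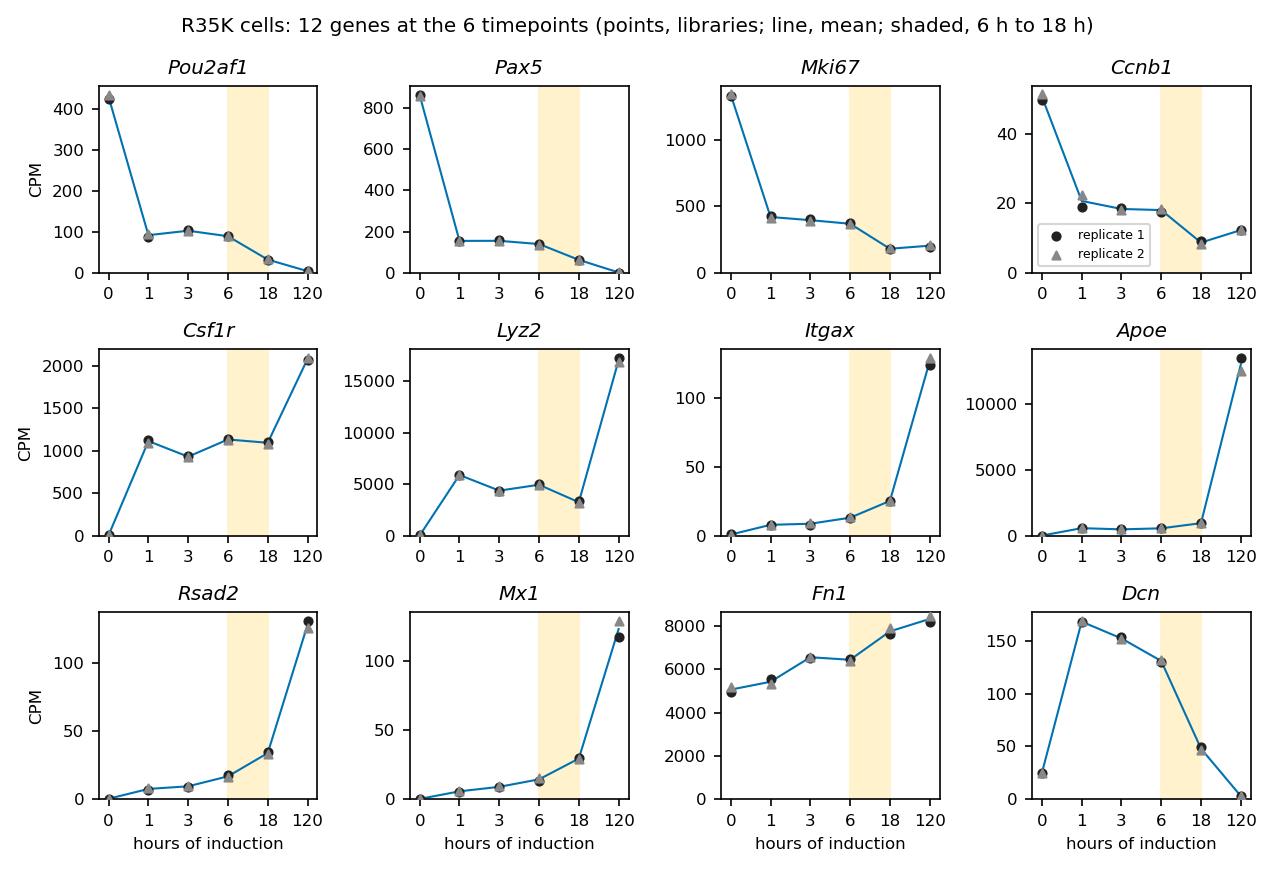
CPM (y axis, linear) of 12 genes at the 6 times of induction (x axis, hours, evenly spaced). Circles and triangles are the 2 libraries of each time, the line joins their means, and the 6 h to 18 h interval is shaded. Pou2af1, Pax5, Mki67, Ccnb1, Lyz2 and Dcn decline across the shaded interval, Itgax, Apoe, Rsad2, Mx1 and Fn1 climb, and Csf1r, at 1138 and 1130 CPM at 6 h and 1104 and 1086 CPM at 18 h, hardly moves.

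The second question was whether the change from 6 h to 18 h in R35K cells differed from that in cells with wild-type C/EBPα or with R35A, tested as the difference of the changes in a fit of all 36 libraries. In that fit, 524 genes (3.03%) were called higher and 1791 (10.4%) lower at 18 h in wild-type cells, and 255 (1.48%) higher and 464 (2.69%) lower in R35A cells. The change in R35K cells was above that in wild-type cells for 649 of 17277 genes (3.76%) and below it for 216 (1.25%). Against R35A cells, it was above for 106 genes (0.614%) and below for 248 (1.44%). The R35K libraries come from a count table separate from that of the other constructs, so that construct and any difference in culture or sequencing cannot be told apart. The cells also differed at 6 h: the 7 macrophage markers summed to 6933 and 6810 CPM in R35K, 557.8 and 552 CPM in wild-type and 3283 and 3284 CPM in R35A cells, and the 9 fibroblast markers other than Fn1 to 2622 and 2576, 4411 and 4529, and 3469 and 3483 CPM.

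The decreases of R35K cells were smaller than those of wild-type cells for many genes of the cell cycle and of the B lineage. The median change of the mitosis genes was -0.81 in R35K, -1.68 in wild-type and -0.65 in R35A cells. For 30 of the 34 the R35K change was above the wild-type change, and for none did it differ from the R35A change past the thresholds. For DNA replication 24 of 40 were above the wild-type change (medians -0.40, -1.02 and -0.35 in the same order). For the B cell signature 9 of 20 were above (medians -1.31, -1.87 and -1.08), and for B cell receptor signalling 14 of 24. Pax5 was at 214 and 228 CPM at 6 h and 49.9 and 56.1 CPM at 18 h in wild-type cells, a change of -2.06 against -1.18 in R35K cells (a difference of 0.88 ± 0.067, adjusted p = 9.02e-16). The wild-type cells had started from higher levels of B cell markers at 6 h (1266 and 1272 CPM, against 848.6 and 839.9 CPM) and reached similar ones at 18 h (325.4 and 327.3 CPM, against 344.4 and 334.9 CPM).

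Among genes with a mean of at least 10 CPM in 1 or more of the groups compared, the limit for all such rankings here, the largest differences above the wild-type change were those of Gbp4, Enpep, Gldc, Clgn and Gm1966. Among genes below that limit, Cd2 had a difference of 2.06. Gbp4 was at 2.42 and 2.33 CPM at 6 h and 0.829 and 0.579 CPM at 18 h in wild-type cells and at 5.20 and 5.67 CPM at 6 h and 10.1 and 10.7 CPM at 18 h in R35K cells (a difference of 2.69 ± 0.33, adjusted p = 3.7e-09). Enpep, an aminopeptidase of early B cells and stroma, was at 40.2 and 41.0 CPM at 6 h and 6.44 and 6.89 CPM at 18 h in wild-type cells and at 17.9 and 18.3 CPM at 6 h and 14.9 and 12.3 CPM at 18 h in R35K cells (a difference of 2.20 ± 0.12, adjusted p = 2.9e-21). Gbp4 moved in opposite directions, while Enpep fell with both constructs and by more with the wild type. Gldc, the glycine decarboxylase, Clgn, a chaperone, and Gm1966 had differences of 1.79, 1.72 and 1.71, each with the larger decrease in wild-type cells.

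With the same limit, the largest differences below the wild-type change were those of Fcrls, Prtn3, Cxcl3, Cxcl2 and C1qc. Fcrls was at 0.262 and 0.614 CPM at 6 h and 0.574 and 0.752 CPM at 18 h in wild-type cells, near the limit of detection, and at 33.5 and 35.1 CPM at 6 h and 4.31 and 4.78 CPM at 18 h in R35K cells (a difference of -3.50 ± 0.45, adjusted p = 1.38e-08). Prtn3, a protease of granulocyte and monocyte progenitors, was at 0.720 and 0.921 CPM at 6 h and 15.2 and 13.4 CPM at 18 h in wild-type cells and at 0.619 and 1.12 CPM at 6 h and 2.24 and 1.79 CPM at 18 h in R35K cells (a difference of -2.91 ± 0.43, adjusted p = 4.02e-07). Cxcl2, a neutrophil attractant, was at 7.46 and 7.31 CPM at 6 h and 22.8 and 24.9 CPM at 18 h in wild-type cells and at 169 and 176 CPM at 6 h and 155 and 147 CPM at 18 h in R35K cells (a difference of -1.89 ± 0.092, adjusted p = 3.38e-23). The level of Cxcl2 in R35K cells was the higher one at both times although its change was the lower. C1qc was at 3.67 and 4.91 CPM at 6 h and 9.95 and 8.97 CPM at 18 h in wild-type cells and at 76.7 and 75.2 CPM at 6 h and 54.3 and 53.3 CPM at 18 h in R35K cells (a difference of -1.63 ± 0.16, adjusted p = 2.76e-12), the same arrangement.

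In several lists of macrophage genes, but not in all, more R35K changes were below the wild-type change than above. Of 20 macrophage signature genes 7 had an R35K change below that in wild-type cells and 5 below that in R35A cells, with none above (medians 0.0047 in R35K, 0.65 in wild-type and 0.40 in R35A cells). Csf1r was at 91.2 and 86.2 CPM at 6 h and 148 and 143 CPM at 18 h in wild-type cells and at 1158 and 1154 CPM at 6 h and 1109.5 and 1093 CPM at 18 h in R35K cells (a difference of -0.78 ± 0.046, adjusted p = 8.13e-20). For 12 of 41 surface receptors the R35K change was below the wild-type change and for 2 above, and for 8 it was below the R35A change. Of 27 chemokines and cytokines 9 were below wild type and 11 below R35A, and of 11 complement genes 6 and 6. The R35K change was above the wild-type change for 3 of 16 integrins and adhesion genes and 4 of 13 genes of MHC class II presentation and costimulation, with none below. It was above for 2 of 25 myeloid transcription factors and below for 1, and above for 1 of 6 NADPH oxidase subunits. Cebpa itself was at 92.2 and 86.4 CPM at 6 h and 38.9 and 38.5 CPM at 18 h in wild-type cells, a change of -1.21 against -0.096 in R35K cells (a difference of 1.11 ± 0.087, adjusted p = 2.97e-15).

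Interferon-stimulated genes stood apart in the other direction. Their median change was 0.50 in R35K, 0.019 in wild-type and -0.17 in R35A cells, and 8 of 30 were above the wild-type change and 15 above the R35A change, with none below either. Of genes past the limit of 10 CPM, the 5 largest differences above the R35A change were those of Mx1, Ifit3, Rsad2, Ifit1 and Cmpk2, and among those below the limit Ifit3b had one of 2.30. Mx1 was at 7.33 and 6.92 CPM at 6 h and 4.56 and 3.48 CPM at 18 h in R35A cells and at 13.7 and 15.5 CPM at 6 h and 30.1 and 29.1 CPM at 18 h in R35K cells (a difference of 1.86 ± 0.16, adjusted p = 2.8e-13). Rsad2 was at 6.68 and 7.76 CPM at 6 h and 6.16 and 4.25 CPM at 18 h in R35A cells and at 17.8 and 16.3 CPM at 6 h and 34.7 and 33.4 CPM at 18 h in R35K cells (a difference of 1.51 ± 0.16, adjusted p = 1.95e-10). The levels in R35K cells were above those in R35A cells at both times, and the distance was greater at 18 h. In wild-type cells Rsad2 was at 1.83 and 1.54 CPM at 6 h and 1.02 and 1.68 CPM at 18 h (a difference of 1.30 ± 0.29, adjusted p = 0.000814). Cmpk2 also differed from wild type (1.16). Mx1, Ifit3 and Ifit1 did not, with differences of 0.59, 0.42 and 0.33 (adjusted p = 0.283, 0.493 and 0.564). Their wild-type changes were 0.43, 0.62 and 0.49, and none passed the test. Their wild-type levels at 6 h were low, with Mx1 at 1.05 and 0.983 CPM and Ifit1 at 1.05 and 2.15 CPM.

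Again with this limit, the largest differences below the R35A change were those of Arg1, Cxcl3, Serpina3n, Cp and Cxcl5. Arg1, the arginase of alternatively activated macrophages, was at 5.91 and 6.64 CPM at 6 h and 16.4 and 18.0 CPM at 18 h in R35A cells and at 11.4 and 10.8 CPM at 6 h and 6.67 and 5.74 CPM at 18 h in R35K cells (a difference of -2.28 ± 0.16, adjusted p = 4.57e-17). Cp, the copper carrier ceruloplasmin, was at 50.5 and 52.6 CPM at 6 h and 53.1 and 52.2 CPM at 18 h in R35A cells and at 47.4 and 48.9 CPM at 6 h and 16.5 and 17.1 CPM at 18 h in R35K cells (a difference of -1.55 ± 0.094, adjusted p = 6.68e-19). Cxcl5, a neutrophil attractant that fibroblasts also make, was at 54.5 and 57.4 CPM at 6 h and 59.8 and 61.2 CPM at 18 h in R35A cells and at 39.0 and 41.3 CPM at 6 h and 15.4 and 15.3 CPM at 18 h in R35K cells (a difference of -1.50 ± 0.097, adjusted p = 6.56e-18). Arg1 moved in opposite directions, while Cp and Cxcl5 fell in R35K cells and had changes of 0.028 and 0.11 in R35A cells, which did not pass. The 9 fibroblast markers other than Fn1 summed to 3358 and 3363 CPM in R35A cells at 18 h and to 2528 and 2507 CPM in R35K cells, and their part in these differences was not tested.

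**Figure D5:**
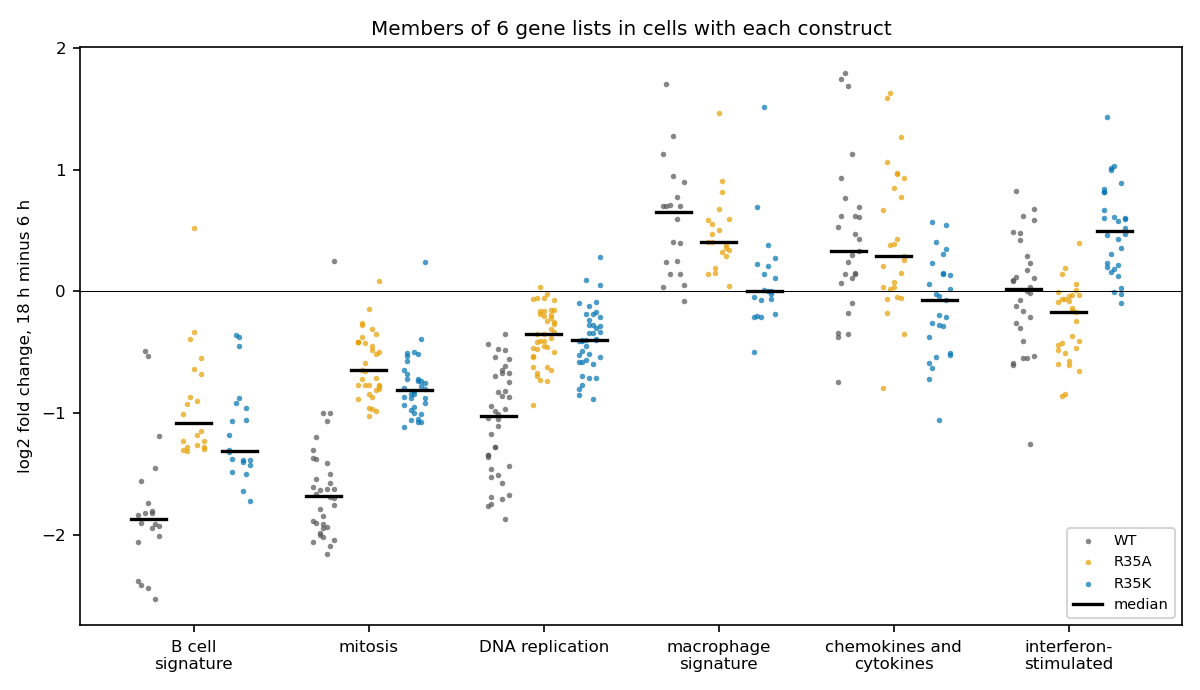
Log2 fold change, 18 h minus 6 h (y axis), of the members of 6 gene lists (x axis) in cells with wild-type C/EBPα (WT, grey), R35A (orange) and R35K (blue), from the fit of 36 libraries. Each point is a gene and the black bar is the median. The R35K bar lies above the WT bar for the B cell signature, mitosis and DNA replication, below both others for macrophage signature genes and chemokines, and above both for interferon-stimulated genes (0.50).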

How the data were processed

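Polyadenylated RNA was sequenced with a stranded kit in 36 libraries. The authors deposited raw counts per gene, one table with the R35K libraries and another with wild type and R35A. Per the labels and the study's methods, reads were aligned to mm10 with STAR 2.5.0a, which counted uniquely mapped reads per gene; FastQC and DESeq2 1.14.1 were also used. The annotation release and the strand column are not given in the sources used here, so that overlapping and antisense genes and near-identical copies are uncertain.

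Groups came from the labels. Counts of 40354 genes were fitted with edgeR 4.0.16 in R 4.3.3 (filterByExpr, TMM scaling, quasi-likelihood F test, Benjamini-Hochberg adjustment over all genes tested), with the 12 R35K libraries in 6 groups for the change from 6 h to 18 h, and with 36 libraries in 18 groups for differences between constructs. The common biological coefficient of variation was 3.49% in the first fit. Genes were called at an adjusted p of at most 0.05 and 1.5-fold. The script was tested on simulated counts. The genes named are the 15 largest changes in each direction with at least 10 CPM and separate replicates, up to 4 examples per list and direction with at least 1 CPM, the 5 largest differences from each other construct in each direction with at least 10 CPM in 1 of the groups compared, Cebpa, Spi1, Carm1 and the study's signature genes; Fn1, Mki67, Plk1, the interferon-stimulated genes that did not pass and the difference of Ifit3b from R35A cells were chosen after their values were seen. Some genes that the rule names are not reported here. The comparison and the lists were chosen with earlier results of these data known. Intervals are not given for single libraries. The p-values rest on a spread estimated over all groups of a fit together, with 2 replicates in each. They do not measure the spread at the 2 times alone, nor variation beyond these replicates. Same-numbered replicates were checked for pairing: over 15 pairs of groups the correlation of deviations had a median of 0.0724 and passed 0.1 in 6, so that they were treated as unpaired. Alternatives were DESeq2 1.42.0, its size factors, other filters, other sets of libraries, other thresholds, a replicate block and leaving out each library. Promoter windows and gene positions came from RefSeq and GENCODE tables of GRCm38, and 11505 of the tested genes had a window.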

Additional observations from a re-analysis of the deposited data

Results flagged for a closer look

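The results below were listed because the change from 6 h to 18 h in R35K cells differed from that in cells with another construct, tested as the difference of the changes in the fit of all 36 libraries. Each value is that difference on the log2 scale, at an adjusted p of at most 0.05 by edgeR and at least 1.5-fold. Construct and table of origin cannot be told apart.

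The R35K change was above the wild-type change for Gbp4 (2.69), Enpep (2.20), Cd2 (2.06), Gldc (1.79), Clgn (1.72), Gm1966 (1.71), 1700027J07Rik (1.44) and Igkc (1.33). It was likewise so for Rsad2 (1.30), Cmpk2 (1.16), Cebpa (1.11), Ifit2 (1.102), Spib (1.08), Gm4759 (1.08), Itgax (1.03) and Pou2af1 (1.03). It was also so for Vpreb2 (0.90), Pax5 (0.88), Blk (0.86), Ikzf3 (0.86), Ppp1r16b (0.77), Adgrg1 (0.77) and Alpl (0.72). Further such genes were Mzb1 (0.68), Igll1 (0.63), Ipcef1 (0.63), Dlk1 (0.61) and Fmod (0.60).

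The R35K change was below the wild-type change for Fcrls (-3.50), Prtn3 (-2.91), Cxcl3 (-2.01), Cxcl2 (-1.89), C1qc (-1.63), Cxcl5 (-1.17), Kit (-0.97) and Mmp3 (-0.97). It was likewise so for Trem2 (-0.92), Cd14 (-0.91), Cp (-0.88), Olr1 (-0.86), Tyrobp (-0.81), Csf1r (-0.78), Fam20c (-0.70) and Serpina3n (-0.65). It was also so for Ifitm6 (-0.63).

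The R35K change was above the R35A change for Ifit3b (2.30), Mx1 (1.86), Ifit3 (1.64), Rsad2 (1.51), Ifit1 (1.42), Cmpk2 (1.19), Ifit2 (1.06) and Smoc2 (0.94). It was likewise so for Dlk1 (0.90) and Tmeff2 (0.61). The R35K change was below the R35A change for Arg1 (-2.28), Cxcl3 (-1.85), Serpina3n (-1.83), Cp (-1.55), Cxcl5 (-1.50), Mmp3 (-1.49), Cxcl2 (-1.04) and Fcrls (-0.99). It was likewise so for C1qc (-0.90), Cd2 (-0.90), Olr1 (-0.85), H2-Ob (-0.85), Igkc (-0.74), Cd14 (-0.68), Adam8 (-0.66) and Cd300lf (-0.64). It was also so for Itgam (-0.61).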

How the results depend on the processing

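With DESeq2, 116 genes were called higher at 18 h than at 6 h, against 184, and 626 of its 627 calls in both directions were among the 887 of edgeR. It called 80 genes higher and 26 lower at 6 h than at 3 h, an interval added after seeing the data, and 66 above and 163 below the R35A change. With edgeR at a 2-fold threshold the counts were 50 higher and 330 lower, and 36 and 23 for 6 h against 3 h. They were 249 and 83 against wild type, and 39 and 88 against R35A. With adjusted p and no fold threshold 1869 genes were higher and 1993 lower at 18 h than at 6 h. With 1.5-fold and unadjusted p 283 genes were higher. Risen lysosome genes numbered 8 with no filter and 8 with 36 libraries in one fit, against 13. The cause of these differences was not tested, beyond the stricter or looser threshold itself.

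Leaving out each library in turn gave 159 to 185 genes higher and 591 to 627 lower, 572 to 628 above and 193 to 211 below the wild-type change, and 86 to 100 above and 214 to 241 below the R35A change. Over the same fits 16 to 21 interferon-stimulated genes, 7 to 10 lysosome genes, 11 to 15 surface receptors and 12 to 15 cytoskeleton genes rose. Fallen members numbered 32 to 33 for mitosis, 23 to 26 for DNA replication, 18 to 18 for the B cell signature, 18 to 19 for B cell receptor signalling, 15 to 17 for B lineage factors, 7 to 10 for chemokines and 10 to 11 for G1 regulators. The log2 fold change took both signs for 4 named genes, none past the test: Spi1 (-0.0363 to 0.00138), Tnfsf9 (-0.127 to 0.117, and 0.0728 without the 6 h replicate 1), Fam20c (-0.0441 to 0.0898) and Cd300lf (-0.0625 to 0.0118).

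With a replicate block 181 genes were higher and 695 lower, 124 and 71 for 6 h against 3 h, 645 and 214 against wild type, and 103 and 242 against R35A. The replicate numbers of the 6 h and 18 h libraries correlated at 0.0709. The number of libraries, 2 a group, limits the precision of every change, and low counts limit that of genes such as Ifit3b and Marco.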

Other observations

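Some transcripts differed between replicates of one time by more than others. CT010467.1 had counts of 12317 and 26335 in the 6 h libraries and of 7605 and 20368 in the 18 h libraries. Lars2 had counts of 3162 and 6704 at 6 h and of 2199 and 4848 at 18 h, and Malat1 of 36908 and 27116 at 6 h. These genes were chosen after their values were seen, and the replicates of both times differed in the same direction for CT010467.1 and Lars2. In CPM, Mir6236, Gm15564, Gm23935 and the mitochondrial ribosomal RNA genes mt-Rnr1 and mt-Rnr2 were likewise higher in replicate 2 at both times. The cause was not tested.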
